A study of Mus musculus with 9 samples.

Results

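The mouse miRNA families miR-669, miR-467, miR-466 and miR-297 were examined in hippocampal RNA of mice exposed to PM2.5, fine airborne particles. They were taken by name, as every miRNA on the array whose name begins with mmu-miR-669, mmu-miR-467, mmu-miR-466 or mmu-miR-297 followed by a letter, a hyphen or nothing, with all arms, which gave 61 of the 1247 mouse miRNAs. The 9 arrays held hippocampal RNA of 9 male C57BL/6 mice, about 8 weeks old at the start, in 3 groups of 3: a control group that received saline, a group that received PM2.5 at 1 mg/kg and a group that received PM2.5 at 5 mg/kg. Saline or particles were given by oropharyngeal aspiration on alternate days over 4 weeks, and the mice were killed 18 h after the last dose. The mice carried no transgene that the labels name. All values come from Agilent one-colour mouse miRNA arrays, on which labelled RNA binds to spots of short DNA probes. A signal is the sum over the probes of a miRNA of their background-subtracted brightness in array units, and a log2 signal is that sum divided by the 75th percentile of the array, taken over the miRNAs detected on all 9 arrays, on the log2 scale.

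Most of these miRNAs are made from a dense cluster of repeated hairpins in an intron of Sfmbt2, a polycomb-group gene that is imprinted and expressed from the paternal allele in the placenta and other extraembryonic tissue. The cluster expanded by duplication in rodents and is best known from the trophoblast and from embryonic stem cells. Each hairpin can give a 5p and a 3p mature strand, the 5p strands being rich in alternating U and G and the 3p strands in alternating C and A, and a mature miRNA finds its targets mainly through its seed, bases 2 to 8. In the RefSeq table of GRCm38.p6, Sfmbt2 covers chr2:10370440-10595253, and 72 miRNA genes lie inside this span, of which 71 bear the family names (chr2:10466663-10518279) and the other, Gm25285, is listed with the synonym Mir466c-3. The table gives no exons. By the positions of their probes, 51 of the 61 members matched hairpins inside the span alone, 7 matched hairpins on other chromosomes alone and 3 matched both.

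The probes of the 16 members that could be tested read 13 to 20 bases of a miRNA, and these targets hold a simple repeat of different lengths. The target read by the probe with the longest repeat is printed for each of them, 5′ to 3′, as the complement of the probe sequence in the files. Capitals mark the longest uninterrupted alternation of U with G or of C with A.
miR-466i-5p: UGUGUGUGUGUGUGUG
miR-669p-3p: cauACACACACACACguau
miR-466h-3p: acgCACACACACAC
miR-467f: ACACACACACACcuaca
miR-466f-3p: CACACACACAuacacac
miR-466q: CACACACACACAuacgu
miR-466i-3p: CACACACACAuacacacua
miR-466g: gacacaugCACACACA
miR-669c-3p: CACACACACACAaguaaa
miR-467a-3p: uauacauACACACACcuaca
miR-669n: uUGUGUGUGgaugugugu
miR-467b-5p: aGUGccugcauguauaug
miR-669f-3p: acauACACACACACguau
miR-467e-5p: aGUGUGagcauguauaugu
miR-467a-5p: ugccugcaUGUauaugcg
miR-466b-3p: uacacgCACACAuaaga
The run of capitals is 16 bases in miR-466i-5p and 10 to 12 bases in 8 other members. It is 8 bases in miR-466g, miR-467a-3p and miR-669n and 3 to 6 bases in the last 4. Because the probes are short, any RNA that carries the same stretch could bind them, and the part of a signal that came from such RNA was not tested.

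The RefSeq table held the mature sequence of 7 of the 61 members, 4 of them tested. These 4 are printed with the seed in capitals, since the seed is what would set their targets, and all 4 come from hairpins away from chromosome 2.
miR-466q: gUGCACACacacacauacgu
miR-467f: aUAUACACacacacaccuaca
miR-466i-3p: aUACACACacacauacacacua
miR-669n: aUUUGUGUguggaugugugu
The table places them at chr3:28419988-28420007 (miR-466q, within the span of Tnik), chr11:69635419-69635439 (miR-467f, within Fxr2), chr13:17747552-17747573 (miR-466i-3p, within Cdk13) and chr3:115979905-115979924 (miR-669n, within Slc30a7). For miR-467f the listed probe position, chr11:69635485-69635500, lies outside this interval, towards the other end of the same hairpin (chr11:69635400-69635519). This difference was not resolved. The 4 seeds differ from one another. The probes of miR-669n are also listed for miR-669c-5p, whose hairpin lies in Sfmbt2, so its signal belongs to both. Of the 61 members, 11 share their probes with further names in this way. Among those tested, the probes of miR-466b-3p are also listed for miR-466a-3p, and those of miR-669f-3p for miR-669a-3p and miR-669o-3p, with 13 hairpins each.

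Between 410 and 436 miRNAs were detected on an array, of which 14 to 17 were members, and 0 spots were saturated. The 75th percentile used for scaling was 492 to 555 units on the control arrays, 507 to 612 at 1 mg/kg and 553 to 614 at 5 mg/kg. The 3 control arrays and replicate 1 of the 1 mg/kg group lay in the first row of 1 slide, the other 2 arrays of that group and replicates 1 and 2 of the 5 mg/kg group in its second row, and replicate 3 of the 5 mg/kg group alone on another slide. The neuronal markers miR-124-3p, miR-9-5p, miR-128-3p, miR-132-3p and miR-138-5p were detected on all 9 arrays.

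Of the 61 members, 17 were detected on at least 1 array, 14 on all 9, and 44 on none, whereas 31.7% of all 1247 mouse miRNAs were detected on all 9. Detection means that at least 1 probe of a miRNA exceeded 3 times its error. The 3 miR-297 members were all undetected. In the miR-466 family 7 of 23 members were detected on at least 1 array, in the miR-467 family 6 of 12, and in the miR-669 family 4 of 23. These counts are not to be set against the 31.7%, which is for all 9 arrays. Undetected members lay close to background: their mean signal over the arrays ran from -11.4 units (miR-466d-5p) to 6.59 units (miR-669h-3p), with a median of 0.0587 units.

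Members named as 3p arms were detected on at least 1 array in 9 of 26 cases, those named as 5p arms in 4 of 25, and those without an arm in their name in 4 of 10. The 3p arms detected were miR-466b-3p, miR-466f-3p, miR-466h-3p, miR-466i-3p, miR-467a-3p, miR-467d-3p, miR-669c-3p, miR-669f-3p and miR-669p-3p. The 5p arms detected were miR-466i-5p, miR-467a-5p, miR-467b-5p and miR-467e-5p, and the members without an arm were miR-466g, miR-466q, miR-467f and miR-669n. Seen by hairpin, miR-466i and miR-467a gave both arms, and so did miR-669c if the shared probes of miR-669n are read as its 5p arm. miR-466f, miR-466h, miR-467d and miR-669p gave the 3p arm with the 5p arm undetected, and miR-467b and miR-467e gave the 5p arm with the 3p arm undetected. The signals of miR-466b-3p and miR-669f-3p, with their shared probes, cannot be given to 1 hairpin. By place, 12 of the 51 members of the Sfmbt2 span alone were detected on at least 1 array, 4 of the 7 from other chromosomes and 1 of the 3 that matched both.

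The detected members were also set out by the length of the repeat run. All 9 members whose probe targets hold a run of 10 bases or more were detected on all 9 arrays, against 5 of the 52 with shorter runs. With these shorter runs, 8 of 52 members and 433 of 1184 other miRNAs were detected on at least 1 array. Such a run, alternating UG or CA in either register, was rare on the array: 0.882% of all mouse miRNAs had one, and the 2 that are no members, miR-574-5p and miR-3082-5p, were also detected on all 9 arrays. Just below this length, 0 of 4 members with a run of 9 bases and 4 of 10 with a run of 8 bases were detected on at least 1 array. The length of 10 bases was chosen after the values were seen, so these counts are a description.

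**Figure D1:**
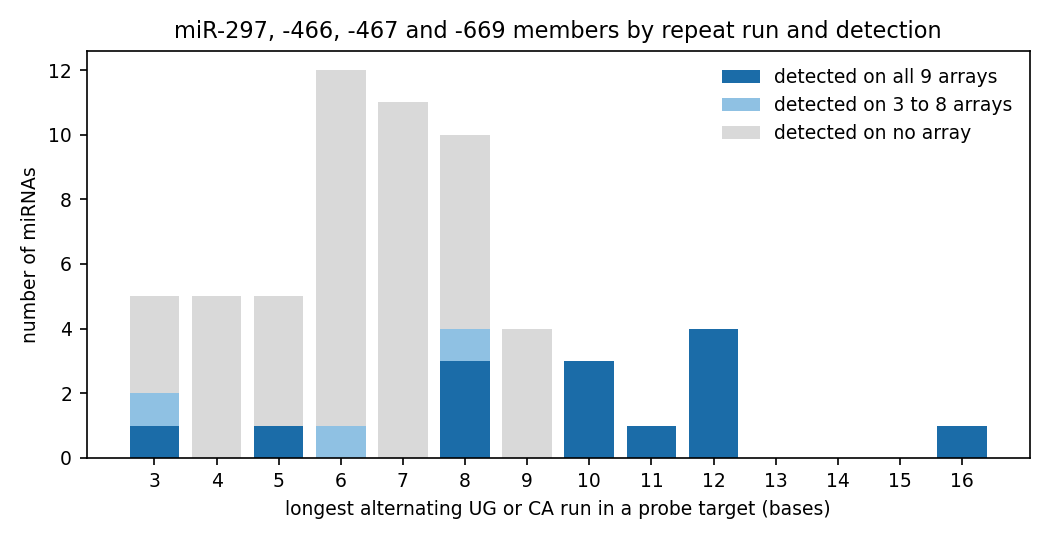
Number of members (vertical axis) by the longest alternating UG or CA run in a probe target, in bases (horizontal axis). Bars are divided into miRNAs detected on all 9 arrays, on 3 to 8 arrays and on none. From 10 bases on, all members were detected on all 9 arrays.

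The filter for testing, detection on all 3 arrays of at least 1 group, left 424 of 1247 miRNAs (34%) and 16 of the 61 members. miR-467d-3p was detected on 3 arrays, 1 in each group, and was not tested. Of the 16, 14 were detected on all 9 arrays. miR-467a-5p was missed only on control replicate 1, so that it entered the test through the PM2.5 groups alone. miR-466b-3p was detected on 1 control array, on all 3 arrays at 1 mg/kg and on 2 at 5 mg/kg. It entered the test through the 1 mg/kg group alone. In array units the highest signals were those of miR-466i-5p (441 to 562 units), miR-669p-3p (87.1 to 118 units) and miR-467a-3p (54.5 to 91.6 units). The lowest were those of miR-466b-3p (11.4 to 22.8 units), miR-467a-5p (10.72 to 24.54 units) and miR-669c-3p (15.2 to 22.4 units). Signals of different probes depend on how well each probe binds and were not compared as amounts.

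PM2.5 at 1 mg/kg was compared with saline to ask which members changed at the lower dose. At an unadjusted p under 0.05 (limma over the 424 miRNAs), 8 of the 16 members were lower and 1, miR-466b-3p, was higher, against 4.95% lower, 2.83% higher and 7.78% in either direction among all miRNAs tested. Those lower were miR-466f-3p, miR-466h-3p, miR-466i-3p, miR-466i-5p, miR-466q, miR-467f, miR-669c-3p and miR-669p-3p. At 5 mg/kg, 6 of 16 members were lower (miR-466f-3p, miR-466i-3p, miR-466i-5p, miR-467f, miR-669c-3p and miR-669p-3p) and 0 were higher, against 5.42% lower, 4.01% higher and 9.43% in either direction among all miRNAs tested. Among the 14 members detected on all 9 arrays the counts were 8 and 6, all lower. No member passed the Benjamini-Hochberg adjustment over the 424 miRNAs: the lowest adjusted p was 0.288 at 1 mg/kg and 0.376 at 5 mg/kg, both for miR-669c-3p, while 1 miRNA of the array (0.236%) passed at 1 mg/kg and 0% at 5 mg/kg. The median change over the 16 members was -0.24 at 1 mg/kg and -0.20 at 5 mg/kg on the log2 scale, beside -0.03 and -0.00 over all 424. Both comparisons use the same 3 control arrays, so the 2 sets of changes are not independent.

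miR-466i-5p, a 5p strand whose probe target is an unbroken UG repeat, had log2 signals of 0.05, -0.12 and 0.04 on the control arrays, -0.13, -0.25 and -0.35 at 1 mg/kg, and -0.31, -0.33 and -0.20 at 5 mg/kg. Every PM2.5 array lay below every control array. The change was -0.24 ± 0.08 (SE) at 1 mg/kg, with an unadjusted p of 0.0212, and -0.27 ± 0.08 at 5 mg/kg, with an unadjusted p of 0.0120, or 0.849 and 0.831 of the control signal. The 3p strand of the same hairpin, miR-466i-3p, stood at -3.80, -4.05 and -4.17 in the controls, -4.24, -4.27 and -4.41 at 1 mg/kg, and -4.34, -4.24 and -4.29 at 5 mg/kg. It showed the same separation, with changes of -0.30 ± 0.10 and -0.28 ± 0.10.

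miR-669c-3p, a CA-rich strand from the Sfmbt2 cluster, had the lowest p of the members at both doses, on low signals of 15.2 to 22.4 units. Its log2 signals were -4.71, -4.63 and -4.89 in the controls, -5.02, -5.09 and -5.23 at 1 mg/kg, and -5.19, -5.08 and -4.96 at 5 mg/kg. The groups did not overlap, and the changes of -0.37 ± 0.10 and -0.33 ± 0.10 left 0.772 and 0.793 of the control signal, with unadjusted p-values of 0.00476 and 0.00845. miR-669p-3p, from a pair of hairpins of the same cluster, stood at -2.20, -2.40 and -2.47 in the controls, -2.54, -2.69 and -2.78 at 1 mg/kg, and -2.64, -2.57 and -2.64 at 5 mg/kg. Its changes were -0.31 ± 0.09 and -0.26 ± 0.09, again without overlap.

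miR-467f, encoded on chromosome 11, stood at -2.82, -2.98 and -3.09 in the controls, -3.14, -3.21 and -3.37 at 1 mg/kg, and -3.35, -3.18 and -3.20 at 5 mg/kg. Its change was -0.28 ± 0.10 at each dose, and neither PM2.5 group overlapped the controls. miR-466f-3p stood at -3.24, -3.44 and -3.60 in the controls, -3.87, -3.80 and -3.68 at 1 mg/kg, and -3.84, -3.79 and -3.52 at 5 mg/kg. Here replicate 3 of the 5 mg/kg group lay among the controls, and the changes were -0.35 ± 0.12 and -0.29 ± 0.12.

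Lower values that passed at 1 mg/kg alone were seen for miR-466h-3p and miR-466q. miR-466h-3p stood at -2.78, -2.99 and -3.12 in the controls, -3.14, -3.20 and -3.27 at 1 mg/kg, and -3.23, -3.19 and -3.08 at 5 mg/kg, with changes of -0.24 ± 0.10 and -0.20 ± 0.10. miR-466q stood at -3.71, -3.91 and -3.88 in the controls, -3.96, -4.04 and -4.26 at 1 mg/kg, and -4.11, -3.98 and -4.01 at 5 mg/kg, with changes of -0.25 ± 0.10 and -0.20 ± 0.10. For neither was the change at 1 mg/kg shown to differ from that at 5 mg/kg, since 0 of 16 members had an unadjusted p under 0.05 in the comparison of the doses in limma (3.77% of all miRNAs tested), and 0 an adjusted p under 0.05. miR-466g, the ninth member below control at both doses, did not pass at either (-0.39 ± 0.20 and -0.31 ± 0.20), and its groups overlapped. Groups of 3 that do not overlap give a two-sided exact permutation p of 0.1, the smallest this design allows; 8 members lay wholly below the controls at 1 mg/kg and 6 at 5 mg/kg, against 7.55% and 9.43% of all miRNAs tested.

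The other 7 members were above control on average at both doses, with changes within the spread of the arrays except for miR-466b-3p at 1 mg/kg. miR-466b-3p stood at -5.58, -5.07 and -5.37 in the controls, -4.89, -4.72 and -5.14 at 1 mg/kg, and -4.74, -4.88 and -5.31 at 5 mg/kg. Its change at 1 mg/kg was 0.43 ± 0.19 with an unadjusted p of 0.0496, the control and 1 mg/kg arrays overlapped, and the filter had admitted it through that group. At 5 mg/kg the change was 0.37 ± 0.19. miR-467a-3p stood at -3.31, -2.96 and -2.98 in the controls, -2.84, -2.85 and -3.22 at 1 mg/kg, and -2.59, -2.78 and -3.29 at 5 mg/kg, with changes of 0.11 ± 0.19 and 0.20 ± 0.19. The changes at 1 and 5 mg/kg were 0.23 ± 0.29 and 0.34 ± 0.29 for miR-467a-5p, 0.22 ± 0.26 and 0.34 ± 0.26 for miR-467b-5p, 0.22 ± 0.26 and 0.32 ± 0.26 for miR-467e-5p, 0.23 ± 0.18 and 0.20 ± 0.18 for miR-669f-3p, and 0.08 ± 0.14 and 0.09 ± 0.14 for miR-669n. For these 5 and for miR-467a-3p, 6 in all, the arrays of each PM2.5 group were spread over a wider range than the change at that dose.

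**Figure D2:**
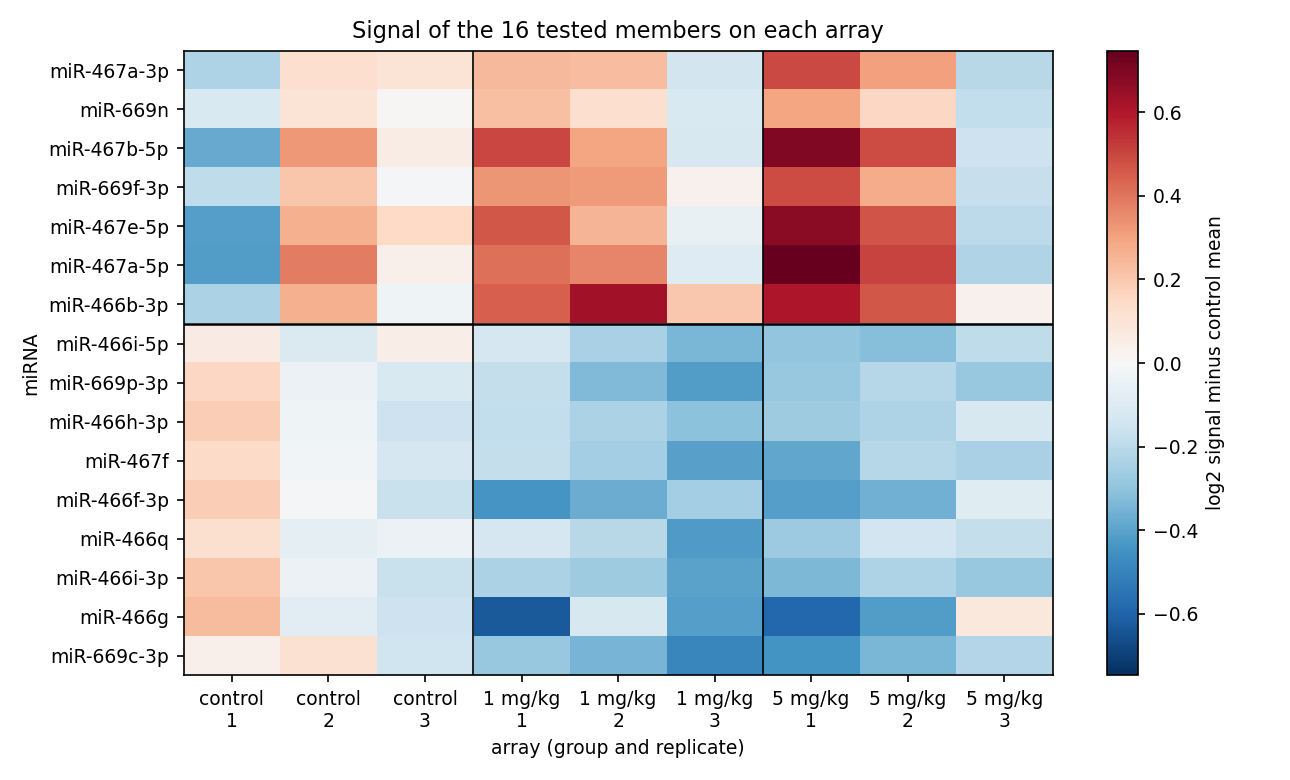
Log2 signal of the 16 tested members (rows) on the 9 arrays (columns), shown as the difference from the mean of the 3 control arrays. The lower 9 members were below the control mean in 53 of 54 values on the PM2.5 arrays, and the upper 7 varied together across arrays.

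**Figure D3:**
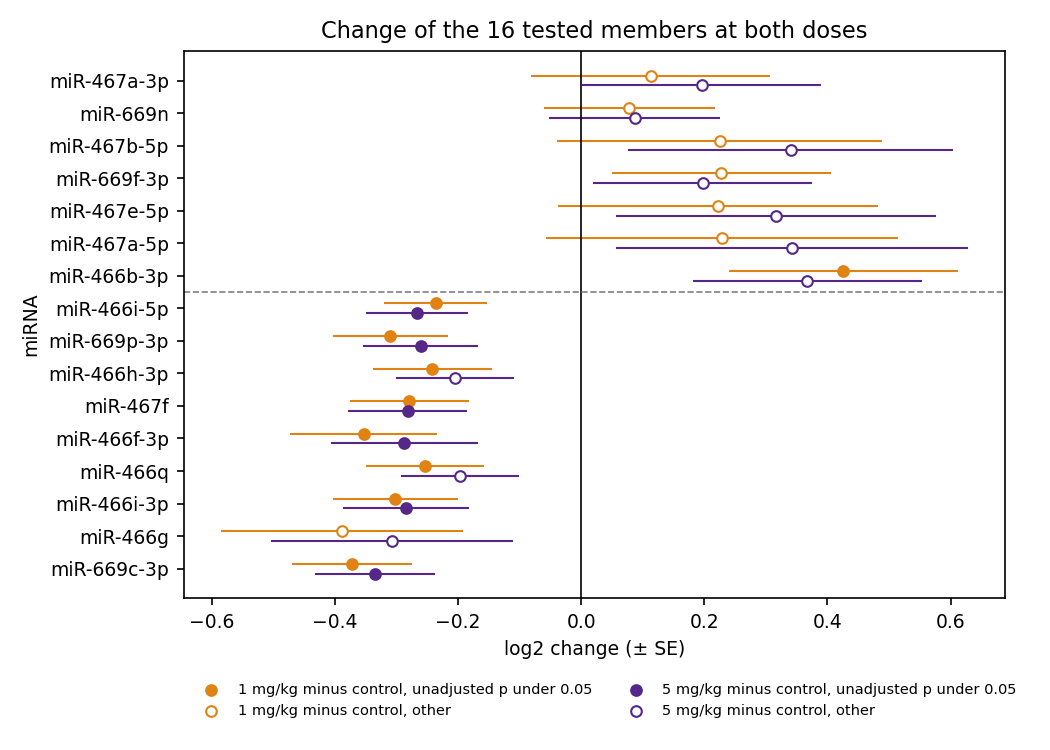
Log2 change from control, with SE, at 1 mg/kg and 5 mg/kg for the 16 tested members. Filled points have an unadjusted p under 0.05, 9 at 1 mg/kg and 6 at 5 mg/kg, and the dashed line parts the 7 members above control from the 9 below.

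The probes of a member behaved alike. Of the 24 probes of the 9 members below control, 22 gave a positive signal on every array, and all 22 had a lower mean at both doses than in the controls. All 16 probes of the other 7 members had a higher mean at both doses. Of these members, miR-466b-3p and miR-467a-5p had entered the test through PM2.5 groups alone, a filter that favours higher values there. Probes of a miRNA are nested in the same sequence and are not replicates. The direction of a member was taken from the sum of these same probes, so their agreement with it was partly fixed in advance.

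How many members passed depended on single arrays. Without control replicate 1, whose signals were the highest of the controls for 8 of the 9 members below control and the lowest for all 7 others, 2 members passed at 1 mg/kg and 2 at 5 mg/kg, against 2.82% and 4.47% of all miRNAs tested. The median change of the 7 members above control fell from 0.22 to 0.0160 at 1 mg/kg and from 0.32 to 0.11 at 5 mg/kg without this array, and that of the 9 below went from -0.30 to -0.21 and from -0.28 to -0.19. Without replicate 3 of the 1 mg/kg group 4 passed at that dose, and without replicate 1 of the 5 mg/kg group 2 passed at that dose, against 4.94% of all miRNAs tested in each case. Without replicate 3 of the 5 mg/kg group, the array alone on its slide, 12 members passed at 5 mg/kg, 6 lower and 6 higher, but so did 28.2% of all miRNAs tested. Position on the slide and group could be told apart only in part: with the slide row as a block, 1 member passed at 1 mg/kg and 0 at 5 mg/kg (1.89% and 3.3% of all miRNAs in limma; 0 members at an adjusted p under 0.05). The median change of the 9 lower members was then -0.26 and -0.21. Of the 2 PM2.5 arrays in a first row, replicate 1 of the 1 mg/kg group lay below all 3 controls for 9 of the 9 lower members, and replicate 3 of the 5 mg/kg group, on its other slide, for 6 of 9, with medians of -0.18 and -0.19 from the control mean. For the 7 members above control these arrays stood on opposite sides, at medians of 0.41 and -0.19. Without scaling between arrays, which moved the median change of all 424 miRNAs to 0.08 at 1 mg/kg and 0.11 at 5 mg/kg, 1 member passed at each dose, in both cases a higher one, against 6.6% and 8.02% of all miRNAs tested, and the 9 lower members had a median change of -0.19 at 1 mg/kg and -0.17 at 5 mg/kg.

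Across the 9 arrays, the 16 members did not vary as 1 unit. After the group means were subtracted, the median Pearson r over their 120 pairs was 0.01, the same as the 0.01 over all 89676 pairs of tested miRNAs, but r ran from -0.92 to 0.99. For a split by arm, members without an arm in their name were counted as a class of their own. Pairs of the same class had a median r of 0.06 and pairs of different classes of 0.00. Both medians include pairs with such members, so they do not compare the named arms alone. Average-linkage clustering of 1 - r parted the members into 2 sets, which were formed after the values were seen and are described without a test. The 7 members of the first set were those above control (miR-466b-3p, miR-467a-3p, miR-467a-5p, miR-467b-5p, miR-467e-5p, miR-669f-3p and miR-669n), and the 9 of the second those below control. These deviations do not use the differences between group means from which the changes were computed. Both come from the same 9 arrays, however, so the match between set and direction of change is not an independent result.

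The first set moved almost as a single signal. Its 21 pairs had r from 0.90 to 0.99, with a median of 0.97. On the log2 signals themselves the median was 0.95, and it was 0.94 without control replicate 1 and replicate 3 of the 5 mg/kg group, the 2 arrays farthest from the median of the set. The mean log2 signal of the set was highest on replicate 1 of the 5 mg/kg group (-3.64) and lowest on control replicate 1 (-4.49), and within the 5 mg/kg group alone it ranged from -3.64 to -4.37. All 7 have a probe position inside Sfmbt2, in hairpins named for 3 families, and the set holds 5p and 3p strands and runs of 3 to 10 bases. The pattern was not confined to the families: 39 of the 408 other tested miRNAs had a mean r above 0.9 with the set and 47 had one below -0.9. The 3 most like it were miR-380-3p, miR-541-5p and miR-139-3p (mean r 0.97 each), and the 3 most opposed were miR-195a-5p, miR-24-3p and miR-497-5p (-0.97 each).

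The second set was looser. Its 36 pairs had r from 0.09 to 0.93, with a median of 0.55, and the 63 pairs between the sets had a median of -0.21. On the log2 signals its median r was 0.84, which includes the shared difference between control and PM2.5 arrays, and 0.77 without control replicates 1 and 2. Of its 9 members, 8 have a run of 10 bases or more, miR-466g being the exception, and 4 (miR-466i-3p, miR-466i-5p, miR-466q and miR-467f) have their hairpins on chromosomes 13, 3 and 11. No other tested miRNA had a mean r above 0.9 with this set, but only 27.8% of the set's own pairs were above 0.8. The bound therefore could not show whether the pattern is confined to the families. The 3 most like the set were miR-3470a (0.75), miR-188-5p (0.72) and miR-3102-5p.2-5p (0.72), each above the median r of 0.55 among the set's own pairs. Over all 16 members the highest mean r was that of miR-5107-5p (0.43), miR-450a-2-3p (0.42) and miR-6360 (0.41).

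**Figure D4:**
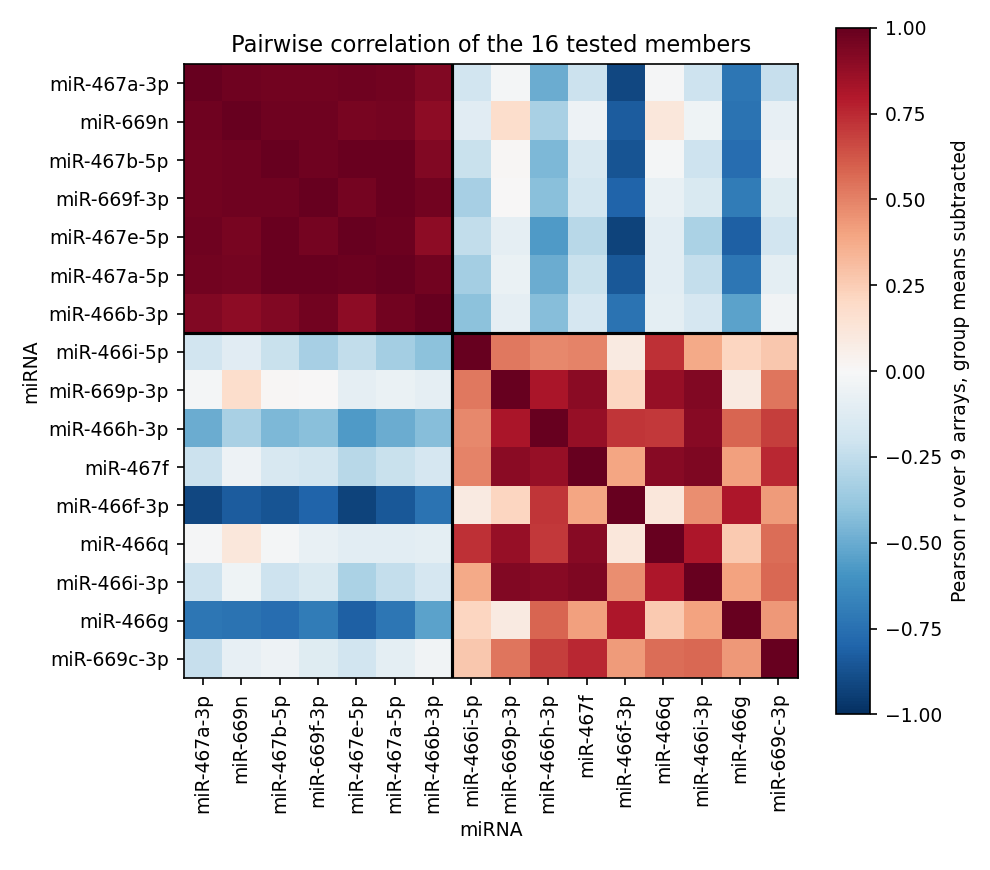
Pearson r over the 9 arrays, after the group means were subtracted, for each pair of the 16 tested members. The black lines part the set of 7 (r from 0.90 to 0.99) from the set of 9 (r from 0.09 to 0.93).

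Hairpins that gave both arms did so in different ways. miR-467a-5p and miR-467a-3p, which 10 hairpins of the cluster encode, varied together over the 9 arrays (log2 signals, r = 0.97, Spearman's rho = 0.98, and r = 0.94 without the 2 arrays farthest from the median of miR-467a-5p). miR-466i-5p and miR-466i-3p were also higher together (r = 0.79, rho = 0.80, and 0.74 without 2 arrays), but r was 0.38 once the group means were subtracted. The 2 sides of the miR-669c hairpin were in different sets: the probe of miR-669n and miR-669c-5p had r = -0.25 and rho = -0.27 with miR-669c-3p, and the value without 2 arrays was -0.72. These correlations share arrays and scaling and are given without a test.

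**Figure D5:**
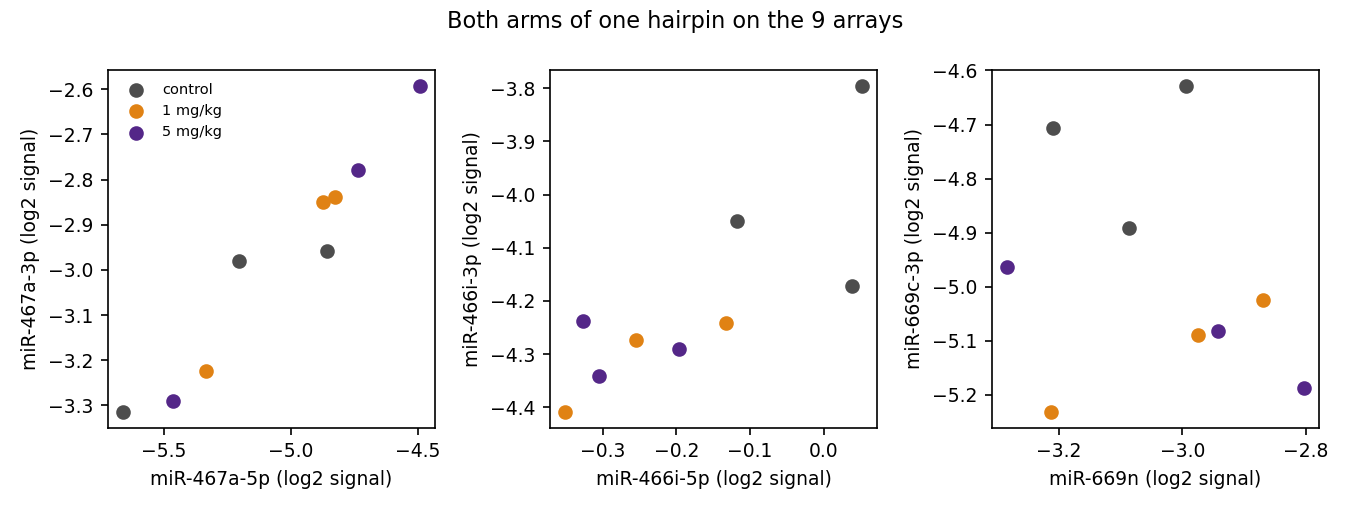
Log2 signals of the 2 arms of a hairpin on the 9 arrays, coloured by group: miR-467a, miR-466i and, for miR-669c, the probe shared by miR-669n and miR-669c-5p against miR-669c-3p. The arms of miR-467a lie along a line (r = 0.97), and those of miR-669c do not (r = -0.25).

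Members with nearly the same target could still differ across arrays. Among the targets printed above, those of miR-467f and miR-467a-3p share a stretch of 13 bases, yet r between them was -0.37 on the log2 signals (rho = -0.32), which include the group differences, and -0.21 after the group means were subtracted. miR-669p-3p and miR-669f-3p share 14 bases and had r = -0.37 (rho = -0.40), and 0.0048 after subtraction. In contrast, miR-467f and miR-669p-3p, from different families and chromosomes, share 12 bases of CA repeat and had r = 0.96 (rho = 0.98), and 0.90 after subtraction. In the first pair the member with the run of 12 bases, miR-467f, is in the set below control, and the member with the run of 8, miR-467a-3p, in the set above it. In the second the runs are 12 and 10 bases. Over the 36 pairs of members that share 10 bases or more, the median r of the deviations was 0.57 (-0.91 to 0.99). Over the 16 that share 8 or 9 bases it was -0.05 (-0.74 to 0.81). Over the 68 that share 7 or fewer it was -0.08 (-0.92 to 0.99). Of the 36 pairs, 21 lay within the set below control, 4 within the set above it and 11 between the sets. Of the 68, 8 and 17 lay within these sets, in that order, and 43 between them. The sets were formed from the same deviations, so these medians partly restate them. A link between shared bases and r was not tested.

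Outside the families, miRNAs with a probe target holding 4 or more consecutive UG or GU units were miR-32-3p, miR-574-5p, miR-672-5p, miR-1187, miR-3082-5p, miR-3097-5p and miR-6348, of which 4 of 7 were tested. Their changes at 1 and 5 mg/kg were -0.19 ± 0.09 and -0.21 ± 0.09 for miR-574-5p (run of 11 bases), -0.22 ± 0.10 and -0.34 ± 0.10 for miR-3082-5p (10 bases), -0.25 ± 0.11 and -0.27 ± 0.11 for miR-1187 (9 bases), and -0.01 ± 0.08 and -0.00 ± 0.08 for miR-672-5p (8 bases). At an unadjusted p under 0.05, 1 of the 4 was lower at 1 mg/kg and 3 at 5 mg/kg, against 4.95% and 5.42% of all miRNAs tested. The lowest adjusted p was 0.376 (limma, miR-3082-5p at 5 mg/kg). The 3 with the longer runs were below the controls on average, as miR-466i-5p was, and a link to run length was not tested. Their mean r with the set below control, after subtraction of the group means, was 0.27 (miR-574-5p), 0.15 (miR-3082-5p) and 0.18 (miR-1187).

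For markers of cell types that the tissue can hold, the scaled signals were summed on each array and log2 was taken of the sum. The brightest markers of a list therefore weigh most in its sum. The log2 sum of the 5 neuronal markers was 7.23 to 7.46 in the controls, 7.003 to 7.268 at 1 mg/kg and 7.17 to 7.41 at 5 mg/kg. Its deviations from the group means had r = -0.86 with the mean of the first set and 0.38 with that of the second. That of the 3 oligodendrocyte markers (miR-219-2-3p, miR-219-5p and miR-338-3p) was 2.05 to 2.59, 2.34 to 2.67 and 1.53 to 2.75, with r = -0.86 and 0.59. That of the 3 choroid plexus markers (miR-204-5p, miR-211-5p and miR-448-3p) was 1.62 to 2.29, 2.42 to 3.13 and 1.51 to 2.48, with r = 0.35 and -0.63. Of these 3, only miR-204-5p was higher at 1 mg/kg at an unadjusted p under 0.05 (limma, adjusted p 0.538), against 2.83% of all miRNAs tested. Of the 4 blood markers, 3 were on the array (miR-451a, miR-144-3p and miR-223-3p), with log2 sums of 1.59 to 1.93, 1.64 to 1.85 and 1.96 to 2.08, and r = 0.61 and -0.32. Of these 3, only miR-451a was higher at 5 mg/kg at an unadjusted p under 0.05 (limma), against 4.01% of all miRNAs tested. At an adjusted p under 0.05, 0% of all miRNAs passed at that dose. In whole tissue, fewer cells of a type and less RNA per cell cannot be told apart, and the part of these cell types in the changes of the members was not tested.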

How the data were processed

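Total RNA of 9 hippocampi was hybridized, 1 array per mouse, and the authors extracted the scans with Agilent Feature Extraction 10.7 (array version 19.0). The deposited files give intensities of each spot, a detection flag and outlier flags; the intensities are background-subtracted and not normalized between arrays. A deposited table of log2 values, per the methods from GeneSpring, was used as an alternative: its columns had medians of -3.32 to -3.29 and correlated with the scanner values at r = 0.994 to 0.996, while its normalization and centring are not stated. Outlier spots were removed, spots of a probe averaged, probes of a miRNA summed, arrays divided by their 75th percentile over miRNAs detected on all 9 arrays, values raised to the lowest detected signal of the array, and log2 taken. limma 3.58.1 in R 4.3.3 fitted the 3 groups over all 9 arrays with Benjamini-Hochberg adjustment over 424 miRNAs, and was tested on simulated data. The number of arrays limits the precision. The p-values measure the spread between arrays, 1 per mouse, so differences between mice and between arrays cannot be told apart in them.

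The detection flag of all 1247 miRNAs followed from their own probes on every array. The total signal per miRNA did not: for 101 to 119 detected miRNAs of an array, 5 to 8 of them members, it differed by over 2% from the sum over the own detected probes, so it served only as an alternative. No spot had the same signal on 2 arrays (0 of 49880). Probe positions were read against RefSeq GRCm38.p6: 375 of 584 listed positions lay inside a miRNA gene of that table, and the others were not used. Members were named where detected on at least 1 array, with values per array for those at an unadjusted p under 0.05 and the 3 brightest. The members, lists and tests were chosen with earlier results of these data known. No pairing by replicate number was assumed. Deviations of arrays with the same number correlated at -0.65 to 0.74, and no pairs of different numbers were set beside them, so a pairing was not tested. qPCR, behaviour and protein data were not analysed here.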

Additional observations from a re-analysis of the deposited data

How the results depend on the processing

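No member passed the adjustment under any setting but the fit without a filter. That fit added 45 members, 44 of them detected on no array, with values under the lowest detected signal of an array raised to that floor. There 50 members passed at 1 mg/kg at an unadjusted p under 0.05 and 47 at an adjusted p under 0.05, as did 62.6% of all 1247 miRNAs unadjusted. The other counts at an unadjusted p under 0.05 (9 members at 1 mg/kg, 6 at 5 mg/kg) moved by over 1.5 times under these settings, given as 1 and 5 mg/kg. They were 0 and 2 when the files' own totals were used (10.1% and 24.1% of all miRNAs), 2 and 2 with normexp (3.3% and 4.01%), 1 and 1 without scaling (6.6% and 8.02%), 5 and 3 with the deposited log2 table (7.55% and 8.02%), and 1 and 0 with the slide row as a block (1.89% and 3.3%). With the slide as a block, which leaves out the lone array of the second slide, 14 passed at 5 mg/kg (28.3%). Leaving out 1 array gave 2 to 10 and 2 to 12. The other settings planned, and the sum over detected probes, which was chosen after seeing the data (7 and 4), stayed within 1.5 times. With the replicate number as a block, which pairs arrays by number only, the counts were 9 and 6. The median change over the 16 members moved by over 1.5 times to -0.098 and -0.095 with the files' totals, -0.11 and -0.10 with normexp, -0.13 and -0.087 without scaling, and -0.15 and -0.13 with the row block, and at 5 mg/kg to -0.12 with the deposited table and to -0.13 without control replicate 1. That of the 7 members above control ran from 0.0160 to 0.36 and from 0.11 to 0.53 when 1 array was left out.

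Of 796 recomputed changes of single members, 774 kept their direction. The 9 members below control reversed only with the files' totals, which are not always the sum of their own probes: miR-669c-3p to 0.11 and 0.19 and miR-466i-3p to 0.37 at 1 mg/kg. In the other set that setting gave -2.10 for miR-466b-3p and -0.996 for miR-669f-3p at 5 mg/kg, and -0.58 for miR-467e-5p and -0.43 for miR-669f-3p at 1 mg/kg. Normexp gave at 1 and 5 mg/kg -0.0191 and -0.0335 for miR-466b-3p, -0.0381 and -0.0213 for miR-467a-3p, -0.0392 and -0.0266 for miR-467a-5p, -0.0346 and -0.0201 for miR-467e-5p, -0.0140 and -0.0241 for miR-669f-3p, and -0.0201 and -0.0158 for miR-669n. The row block gave -0.0233 for miR-467a-3p at 1 mg/kg. Leaving out 1 array moved this change between -0.00787 and 0.24, and that of miR-669n at 5 mg/kg between -0.0166 and 0.22. The causes were not tested.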
